A study of Mus musculus with 6 samples.

Results

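CatSper is the calcium channel of the sperm tail, and 6 of its subunit genes were followed here through the testis transcriptome of mice given an inhibitor of GDNF signalling. The genes were chosen by family: Catsper1, Catsper2, Catsper3 and Catsper4, which encode the pore, and Catsperb and Catsperd, which encode auxiliary subunits. All 6 were found among the 23361 tabulated genes, and all 6 passed the filter on low counts. RNA came from whole testes of 6 C57BL/6J mice aged about 120 days, each sequenced as 1 library of polyadenylated RNA. Every animal, control or treated, was homozygous for Ret V805A, a substitution that lets the small molecule 1NaPP1-HCl block the Ret receptor kinase, through which glial cell line-derived neurotrophic factor (GDNF) acts. Of these, 3 control mice were injected daily for 9 days with the saline, cremophor and ethanol vehicle. The 3 inhibitor mice received 1NaPP1-HCl in that vehicle, and testes were taken on day 14 after 5 days of recovery. No treated animals without the substitution were analysed here, so effects through Ret and through other targets of the compound cannot be told apart.

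The pore of CatSper is built from 4 different proteins, one from each of the genes Catsper1 to Catsper4, which resemble voltage-gated cation channels. Auxiliary subunits with large extracellular or cytoplasmic parts surround the pore, and the assembled complex lies in rows along the principal piece of the flagellum. Calcium entering through it drives hyperactivated swimming, and male mice that lack a pore subunit are infertile. The genes are transcribed in the germ line, in meiotic and post-meiotic cells, so their RNA in whole testis comes from cells several steps downstream of the spermatogonia that respond to GDNF.

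Upstream sequence was read for the members from RefSeq promoter windows of build GRCm38.p6, which matched 5 of the 6. Catsper1 had no entry. Catsperd had 2 start sites, which gave 6 windows of 250 bases before a start. Searched on both strands, the core of the cAMP response element (CRE), TGACG, was present in 2 of the 6 windows, those of Catsper2 and of the upstream Catsperd start. It was in 17.8% of all 32851 windows of that length. The upstream Catsperd window held 3 such cores, at 160, 141 and 106 bases before the start, and an E-box, CACGTG, at 113. E-boxes were in 6.02% of all windows. The full CRE, TGACGTCA, which contains the core, was in none of the 6 windows and in 1.55% of all. The half-site of the X-box, GTTGCC, and the TATA letters TATAAA were in none of the 6, against 10.4% and 12.4% of all. The stretches below belong to the 3 members with the largest positive fold changes, chosen after their values were seen, and capitals mark the matches (CGTCA is TGACG on the other strand). The upstream Catsperd start is a RefSeq start that lies before the GENCODE gene start given further on.

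Catsper2, chr2:121413848-121413877, reverse strand, around its CRE core: attggctgCGTCAcgcagcgtcgggcgggc

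Catsperd, chr17:56626882-56627046, forward strand, up to the upstream start: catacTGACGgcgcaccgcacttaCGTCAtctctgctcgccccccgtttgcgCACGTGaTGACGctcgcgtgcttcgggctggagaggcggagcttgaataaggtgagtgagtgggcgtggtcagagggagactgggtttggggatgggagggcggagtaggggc

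Catsperb, chr12:101404423-101404642, forward strand, with no match: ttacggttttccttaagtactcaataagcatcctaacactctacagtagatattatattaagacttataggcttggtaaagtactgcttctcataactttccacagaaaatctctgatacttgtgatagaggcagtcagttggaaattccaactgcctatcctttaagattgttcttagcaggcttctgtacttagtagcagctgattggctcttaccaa

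The 250-base windows of Catsper2 and Catsperb differed in composition, with 74.8% and 38.0% G and C. The upstream Catsperd window had 66.8%, so the windows with a CRE core were those richest in G and C. The shares of motifs over all windows were not matched for composition. Both motif-bearing windows, and the Catsper3 window without a match, also overlap a neighbouring gene on the opposite strand. GENCODE M21 places exon sequence of Pdia3 over all 250 bases of the Catsper2 window, and exon sequence of Lonp1 over 91 bases of the Catsperd window. In the Catsper3 window, exon sequence of the antisense gene 4930451E10Rik covers 81 bases. Within annotated exons, 18 of 3695 bases of Catsper2 were shared with Pdia3, and the source of fragments there cannot be told apart unless the counting used strand. Pdia3, which encodes a protein disulphide isomerase, averaged 421 ± 5.40 CPM in the control group and 452 ± 4.76 CPM in the inhibitor group (SD of 3 mice; CPM is the share of a library's fragments, scaled to a common library size). Lonp1, a mitochondrial protease gene, stood at 33.1 ± 1.94 and 29.3 ± 3.28 CPM.

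Libraries held from 23144295 to 43127892 fragments assigned to genes. Each member rested on at least 1729 fragments in every library, so that counting error alone was at most 2.40% of a value. Inhibitor 3 stood apart: its pairs with the other inhibitor libraries differed by 12.1 and 13.1 chi-square units per degree of freedom, against 4.23 to 6.05 for the other pairs within a group. Results are therefore given with and without it where it matters. Ret itself fell from 2.17 ± 0.294 to 0.579 ± 0.0858 CPM (log2 fold change −1.91; adjusted p = 0.0199 by the quasi-likelihood test of edgeR, adjusted after Benjamini and Hochberg). It did not pass without control 1, control 2, inhibitor 1 or inhibitor 2 (edgeR adjusted p = 0.0932 to 0.157). Its counts were low, with 54 to 105 fragments in control libraries and 14 to 17 in inhibitor libraries. Markers of Sertoli, Leydig, peritubular myoid and endothelial cells and macrophages were all detected, with median log2 fold changes of −0.22 to −0.02. By mean log2 CPM the list levels overlapped between groups. By gene, 9 of 10 Sertoli, 6 of 8 Leydig, 6 of 7 myoid, 6 of 6 endothelial and 4 of 6 macrophage markers were lower, and none passed. The macrophage list was mixed. Its 2 markers at an unadjusted edgeR p under 0.05, Aif1 (0.20) and Lyz2 (0.32), were higher, where 9.43% of all genes were. Its summed CPM was 384 to 391 in controls and 426 to 458 in inhibitor mice, without overlap. Most of that sum was Aif1 alone, at 319.5 and 367.5 CPM in the control and inhibitor groups, so it says little of the other markers. Without inhibitor 3 the Sertoli, Leydig and endothelial medians were −0.18, −0.19 and −0.35, against −0.11, −0.08 and −0.17 with it. In that fit 14.3% of all genes passed, 8.71% higher and 5.54% lower. There 4 Sertoli, 1 Leydig, 1 myoid and 1 endothelial marker passed lower, and 1 Sertoli and 2 macrophage markers passed higher. Without any other single mouse no marker of these lists passed, and some medians differed. The Leydig median was 0.006 without inhibitor 1, and the endothelial median −0.06 without inhibitor 2. Without control 2 the myoid and macrophage medians were 0.04 and 0.12. Of 12 tested markers of undifferentiated spermatogonia, the cells that carry Ret, 11 were lower and 3 of these passed (Sox3, Zbtb16 and Lin28a), where 0.096% of all genes passed lower. Without inhibitor 3 there were 6 past the threshold, without any other single mouse 0, and with the mouse number as a block 1. Of 10 epididymis markers, only 2 were expressed enough to test, and 2 were at 0 in every library.

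All 6 subunit genes were well expressed, and their order by level was led by a pore gene. On the deposited FPKM scale, which divides fragments by transcript length and library size, Catsper2 had the highest mean over the 6 libraries, 167 FPKM, above 97.0% of tabulated genes. Catsper4 followed at 75.8, Catsper3 at 63.1, Catsper1 at 59.2 and Catsperd at 57.8 FPKM, and Catsperb was lowest at 31.4 FPKM. Catsper2 exceeded Catsper4 in all 6 libraries, by 1.97 to 2.58 times, and Catsperd exceeded Catsperb in all 6, by 1.77 to 1.93 times. Neither of these pairs overlapped in range. Catsper4 was above Catsper3 in all 6 libraries, although their ranges overlapped. Catsper3 was above Catsper1 in 4 libraries, with ranges that overlapped. Catsper1 and Catsperd stood in opposite order in the groups, without overlap within either. In the controls Catsper1 was at 60.9 to 64.0 FPKM and Catsperd at 51.8 to 56.9, and in the inhibitor mice Catsper1 was at 55.5 to 56.9 and Catsperd at 58.0 to 63.9.

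**Figure D1:**
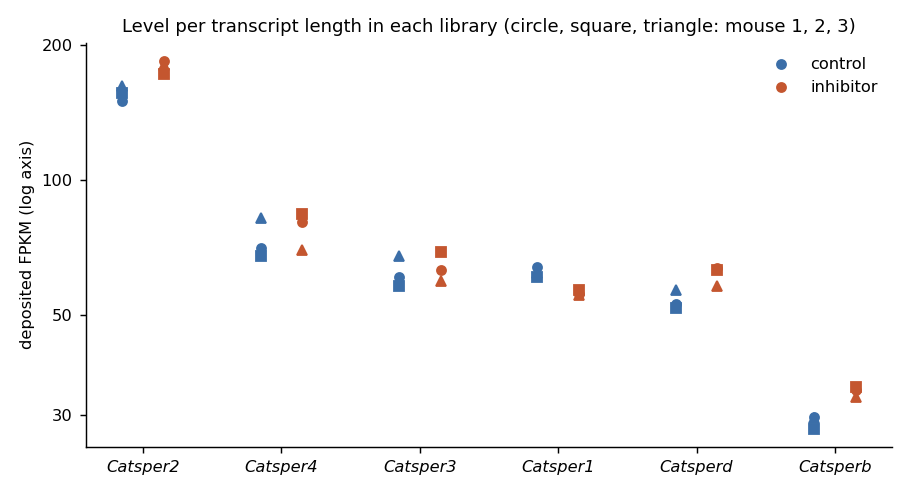
Deposited FPKM of the 6 subunit genes (logarithmic vertical axis) in each of the 3 control and 3 inhibitor libraries, ordered by mean level. Catsper2 lies above all others in every library and Catsperb below all others, while Catsper3, Catsper1 and Catsperd share a range.

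Inhibitor and control mice were compared to ask how subunit RNA differed after treatment and recovery. No member passed the threshold of 0.05 on the p adjusted over all 16658 genes tested with edgeR, where 0.156% of genes were called. At an unadjusted p under 0.05, 4 of the 6 members were called, against 17.9% of all genes tested. Of these 4, 3 were higher in inhibitor mice (Catsper2, Catsperb and Catsperd), where 9.43% of all genes were, and 1 was lower (Catsper1), where 8.48% were. The same 4 members were those whose CPM values did not overlap between groups, as in 22.9% of all genes tested. The median log2 fold change was 0.14 over the 6 members and −0.0041 over all genes tested. DESeq2 called 2 members, Catsper2 and Catsperb, both higher, where it called 3.4% of 10998 genes higher, and limma-voom called none. In edgeR without inhibitor 3, Catsper2, Catsperb and Catsperd passed (adjusted p = 0.0130, 0.00404 and 0.00584), in a fit where 8.71% of 16871 genes passed higher, and without any other single mouse no member did (lowest adjusted p = 0.186).

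**Figure D2:**
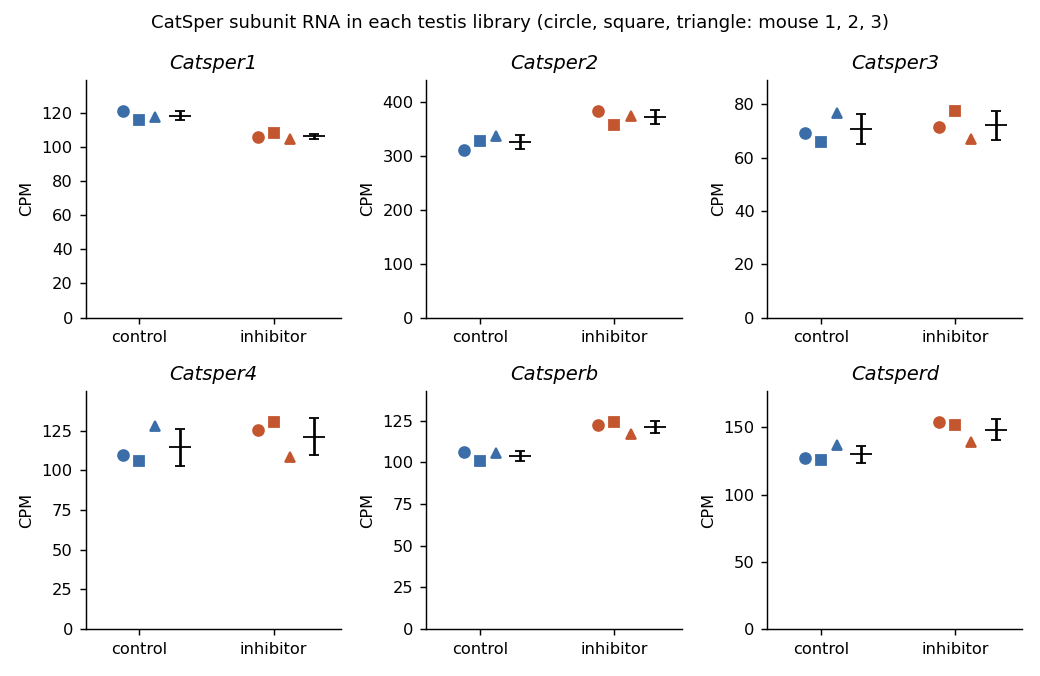
CPM of each subunit gene by library (vertical axes from 0), with the mean and SD of 3 mice per group beside the points. The control and inhibitor points are separate for Catsper1, Catsper2, Catsperb and Catsperd, and mixed for Catsper3 and Catsper4.

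Catsper1, on chromosome 19 (5335741 to 5344280, forward strand, GRCm38), encodes the pore subunit known for its histidine-rich amino-terminal tail. It stood at 121, 116 and 117 CPM in controls 1, 2 and 3, and at 106, 108 and 105 CPM in inhibitor mice 1, 2 and 3. All inhibitor values lay below all controls. The group means were 118 ± 2.67 and 106 ± 1.53 CPM (here and for the other members ± is the SD of 3 mice), a log2 fold change of −0.15 (95% interval −0.26 to −0.05, edgeR adjusted p = 0.136). It was the only member with a lower mean in the inhibitor group in the edgeR analysis. It had the same sign under all 16 alternatives, between −0.18 and −0.14.

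Catsper2, on chromosome 2 (121392631 to 121413792, reverse strand), encodes another subunit of the pore. Its levels were 312, 327 and 338 CPM in the controls and 384, 358 and 374 CPM in the inhibitor mice, without overlap. The means were 326 ± 12.99 and 372 ± 13.04 CPM, and the log2 fold change was 0.19 (95% interval 0.09 to 0.30, edgeR adjusted p = 0.0961).

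Catsper3, on chromosome 13 (55784568 to 55808998, forward strand), and Catsper4, on chromosome 4 (134211970 to 134227383, reverse strand), complete the pore. Catsper3 stood at 69.2, 65.9 and 76.9 CPM in controls and 71.5, 77.6 and 67.2 CPM in inhibitor mice. Catsper4 stood at 109, 106 and 128 CPM in controls and 125, 130 and 108 CPM in inhibitor mice. In both genes the groups overlapped, with control 3 and inhibitor 2 high and control 2 and inhibitor 3 low. The log2 fold change of Catsper3 was 0.03 (95% interval −0.13 to 0.18, edgeR adjusted p = 0.873), and it turned negative with scaling by library totals only, with the length and GC offset, and without control 2 or inhibitor 2. That of Catsper4 was 0.08 (95% interval −0.11 to 0.28, edgeR adjusted p = 0.651), and it ranged from 0.03 to 0.18 with single mice left out. The intervals therefore include a change as large as that of Catsper2 for Catsper4, and most of it for Catsper3.

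Catsperb, on chromosome 12 (101404653 to 101626009, forward strand), encodes an auxiliary subunit with a large extracellular part. It stood at 106, 101 and 105 CPM in controls and 122, 124 and 117 CPM in inhibitor mice, and the groups did not overlap. The means were 104 ± 2.96 and 121 ± 3.56 CPM, a log2 fold change of 0.22 (95% interval 0.11 to 0.33, edgeR adjusted p = 0.0896), the largest estimate of the 6. Among the members, its longest annotated transcript was the longest, 3716 bases, and had the lowest G and C content, 37.2%. With an offset for trends of each library on length and GC content of transcripts, the estimate was 0.13 (edgeR adjusted p = 0.223).

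Catsperd, on chromosome 17 (56628143 to 56664456, forward strand), encodes an auxiliary subunit without which the channel complex is not stable in mouse sperm. It stood at 127, 125 and 137 CPM in controls and 154, 152 and 139 CPM in inhibitor mice. The groups did not overlap, although control 3 and inhibitor 3 lay close together. The means were 130 ± 6.27 and 148 ± 7.99 CPM, with a log2 fold change of 0.19 (95% interval 0.07 to 0.32, edgeR adjusted p = 0.123).

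Shares of the members within each library describe their balance, and were not tested. Of the summed FPKM of the 6 members, Catsper1 made up 14.95, 14.4 and 13.5% in controls and 11.6, 11.9 and 12.2% in inhibitor mice. The share of Catsperd was 12.3 ± 0.063% and 13.1 ± 0.285%, and that of Catsperb 6.64 ± 0.264% and 7.17 ± 0.082%, again without overlap. These shares reuse the values in which the groups were already separate, so they add no support. Shares of Catsper2, Catsper3 and Catsper4 overlapped. As a ratio within each library, Catsperb to Catsper1 was 0.463, 0.459 and 0.475 in controls and 0.610, 0.609 and 0.592 in inhibitor mice. The ratio of Catsper2 to Catsper1 was 2.51 ± 0.145 and 3.19 ± 0.147, and that of Catsperd to Catsper1 was 0.866 ± 0.0474 and 1.10 ± 0.0495. These 3 of the 5 ratios to Catsper1 did not overlap between groups. Each gave p = 0.1 in an exact two-sided permutation test on the log2 scale, the smallest that 3 against 3 mice allow, or 0.167 adjusted over the 5 ratios. This outcome was fixed beforehand and adds no support. Catsper1 was already lower, and Catsper2, Catsperb and Catsperd higher, in all inhibitor mice, so their ratios had to separate. For Catsper3 and Catsper4 the exact permutation p was 0.2. The choice of Catsper1 as denominator was made after its values were seen.

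Across the 6 libraries the members fell into patterns that the group labels describe only in part. Catsper3 and Catsper4 varied together (Pearson r = 0.943 over 6 libraries of log2 CPM), as did Catsperb and Catsperd (0.929) and Catsper2 and Catsperd (0.843). Catsper1 ran opposite to Catsper2 (−0.958) and Catsperb (−0.849), and was nearly unrelated to Catsper3 (−0.040). These are descriptions of 6 points that share libraries and scaling, and for the 4 members without overlap they largely restate the difference between groups.

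**Figure D3:**
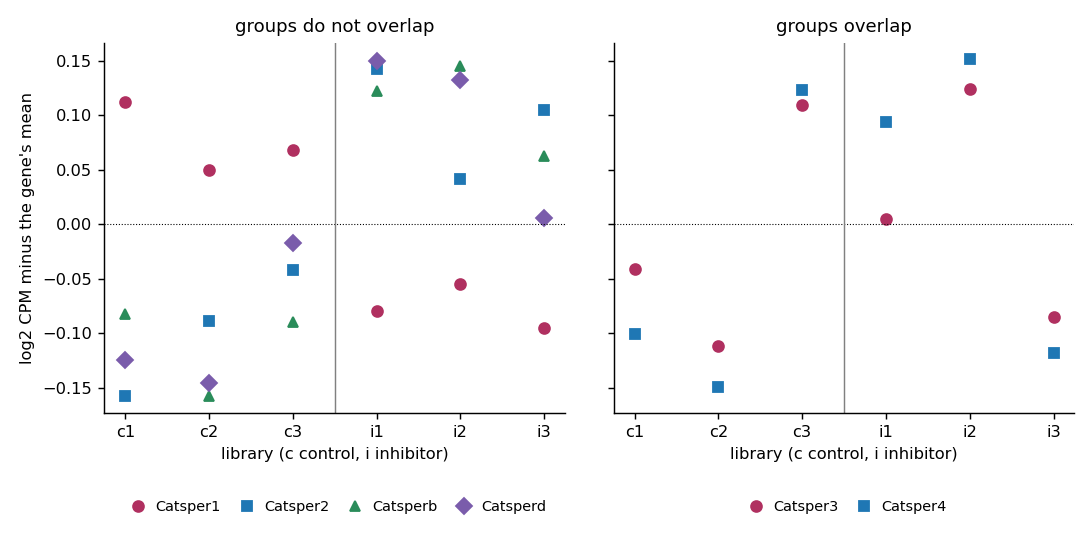
Log2 CPM of each subunit gene minus its own mean over the 6 libraries (c1 to c3 control mice, i1 to i3 inhibitor mice). Catsper1 is above its mean in all controls and below it in all inhibitor mice, Catsper2, Catsperb and Catsperd the reverse, while Catsper3 and Catsper4 are both highest in i2 and c3.

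Of 11755 genes with a mean of at least 1 FPKM, those closest in pattern over the 6 libraries were, for Catsper1, Akap2 (r = 0.991) and Wrnip1 (0.989). For Catsper2 they were Dctn6 (0.992) and Tnni3 (0.991), and for Catsper3 Sft2d3 (0.986) and Ypel3 (0.982). For Catsper4 they were Gtf3c3 (0.990) and Pkd2l2 (0.984), the latter a polycystin family channel gene. Kbtbd3 (0.997) and Rdx (0.996), which encodes the membrane-cytoskeleton linker radixin, were closest to Catsperb, and Spn-ps (0.998) and Rgs10 (0.993) to Catsperd. With so few points close matches are common: between 12 genes (Catsper3) and 203 genes (Catsperb) had r above 0.95.

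Other genes of the CatSper complex were at hand for 8 of 11 listed symbols, and all 8 had positive log2 fold changes, with a median of 0.10, while 49.0% of all genes tested were positive. None passed in edgeR over all genes tested, and 4 were under an unadjusted p of 0.05, each of them higher in inhibitor mice, where 9.43% of all genes were. Tex40 was taken as the tabulated name of Catsperz. RefSeq also lists that synonym for the adjoining Kcnk4, which has a row of its own in the table with 0 to 9 fragments per library. Tex40 stood at 264, 248 and 251 CPM in controls and 337, 348 and 283 CPM in inhibitor mice, a log2 fold change of 0.34 with an edgeR adjusted p of 0.0826. CatSper zeta pairs with the calcium sensor encoded by Efcab9, which stood at 89.8 ± 5.29 and 101 ± 7.48 CPM (0.18) with overlapping groups. Slco6c1, a transporter family member associated with the channel, stood at 170 ± 5.68 and 197 ± 8.44 CPM (0.21), and Als2cr11, the tabulated name of C2cd6, at 285 ± 7.42 and 308 ± 13.2 CPM (0.12). The 2 gamma subunit genes Catsperg1 (0.03) and Catsperg2 (0.06), Trim69 (0.07) and Gm16432, the tabulated name of Catspere2 (0.08), had smaller estimates. Catsperg1 and Catsperg2 are close paralogues, as are the genes of the epsilon subunit, so a fragment may have been assigned to the wrong copy and these values are uncertain. Per transcript length, Tex40, if it is Catsperz, was the most abundant of the complex at 488 FPKM and Gm16432 the least at 9.81 FPKM. DESeq2 called 2 of the 8, Tex40 and Slco6c1, both higher, where it called 3.4% of all genes higher. In edgeR with no filter on low counts, Tex40 alone of the 8 passed (adjusted p = 0.0472), where 58 of 20571 genes passed higher. DESeq2 also called genes of the sperm calcium handling and late germ cell lists, given below. Without inhibitor 3 edgeR called 4, namely Tex40, Slco6c1, Efcab9 and Als2cr11, all higher, where 8.71% of all genes passed higher. None of the 8 passed without any other single mouse. With the length and GC offset, which Tex40 did not receive, 4 of the 8 were positive and 4 negative.

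**Figure D4:**
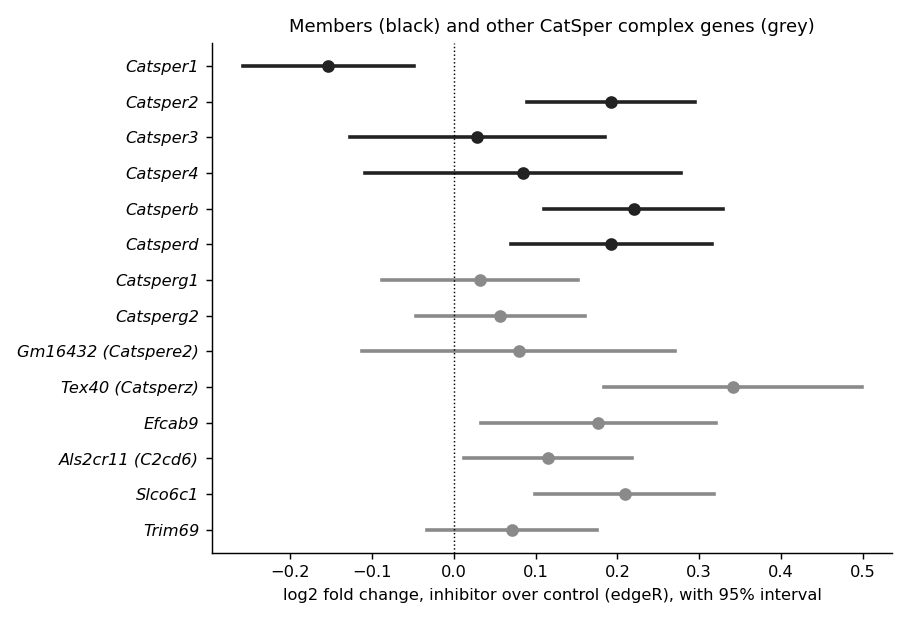
Log2 fold change of inhibitor over control (horizontal axis) with its 95% interval from edgeR, for the 6 members (black) and 8 other CatSper complex genes (grey). Catsper1 alone has its interval below 0, and the highest estimate, 0.34, belongs to Tex40 (Catsperz).

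Lists of genes that work beside the channel had medians on both sides of 0. Of 12 tested genes of sperm ion transport and cAMP signalling, 6 were higher and 6 lower, with a median of −0.0006. None passed the edgeR threshold. At an unadjusted edgeR p under 0.05, 2 were higher and 1 lower, against 9.43% and 8.48% of all genes. The 12 included Slc9c1, the sperm sodium-proton exchanger gene (0.13), Slc9b1 (0.12) and Atp2b4, a plasma membrane calcium pump gene (−0.14). The same shares of all genes apply to the unadjusted counts of the other lists below. Of 10 genes of sperm calcium handling, 7 were higher (median 0.13), 5 of them and 1 lower gene at an unadjusted p under 0.05, and none passed. The mean log2 CPM of that list did not overlap between the groups. Ppp3r2, the testis calcineurin regulatory subunit gene, was at 472 ± 11.7 and 572 ± 49.2 CPM (0.28), Cabs1 at 564 ± 18.8 and 647 ± 40.1 CPM (0.20), and Itpr1, an inositol trisphosphate receptor gene, at 36.8 ± 2.84 and 30.0 ± 2.06 CPM (−0.30). Without inhibitor 3, 5 of these 10 passed upward and 1 downward, against 8.71% and 5.54% of all genes. None of the 10 passed without any other single mouse. In DESeq2, 3 of the 10 were called higher and 1 lower, where 374 and 170 of 10998 genes were. Other voltage-gated calcium and two-pore channel genes had a median of −0.07 over 11 tested, with 8 lower, none past the threshold and 1 (Cacna1c, −0.45) under the unadjusted threshold. With the length and GC offset 9 of those 11 were higher, with a median of 0.11, and without inhibitor 3 the median was −0.01 with 5 higher. With the same offset 10 of the 12 ion transport genes were higher, and the calcium handling median was 0.04. Spermatocyte and spermatid transcription factors had a median of 0.01 over 11, with Tbpl1 at 0.24, Crem, the CRE modulator of spermatids, at 0.16, and Rfx1, which binds X-boxes, at −0.16. None passed, and at an unadjusted p under 0.05 the list had 2 higher genes and 1 lower. Without inhibitor 3, 3 of the 11 passed upward, against 8.71% of all genes. None of the 11 passed without any other single mouse. In DESeq2, 1 of these 11 was called higher, and no gene of the ion transport or channel lists was called.

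Marker lists of late germ cells were set beside the members. By mean log2 CPM the elongating spermatid and spermatocyte lists did not overlap between groups, and the round spermatid list did. Tbpl1 is also a spermatocyte marker here, and Cabs1 an elongating spermatid marker. The summed level of 14 elongating spermatid markers was 25428 to 26408 CPM in controls and 27726 to 28802 CPM in inhibitor mice, with 13 of 14 higher and a median log2 fold change of 0.14. For 14 round spermatid markers it was 2573 to 2721 and 2696 to 2955 CPM, with 12 higher and a median of 0.07, and for 12 markers of pachytene and later spermatocytes 9064 to 9464 and 9780 to 10177 CPM, with 9 higher and a median of 0.15. No marker of these 3 lists passed in edgeR. At the unadjusted threshold 8, 4 and 6 were higher and 0, 0 and 1 lower, against 9.43% and 8.48% of all genes. Without inhibitor 3, 8, 5 and 6 passed upward and 0, 0 and 1 downward, against 8.71% and 5.54% of all genes. In that fit 10, 13 and 7 markers were higher, and the round spermatid median was 0.14. Without any other single mouse no marker of these 3 lists passed. In DESeq2, 4 elongating spermatid, 1 round spermatid and 5 spermatocyte markers were called higher and 0 lower, where 3.4% of all genes were called higher. With the length and GC offset the 3 medians were 0.08, 0.01 and 0.03. None of these markers was at 0 in every library. In whole tissue, a different number of cells of a type and a different amount of RNA per cell cannot be told apart, and the part of cell composition in the members' values was not tested. Measured against the mean log2 CPM of the round spermatid list in the same library, Catsper1 was lower in inhibitor mice by −0.24, Catsperb higher by 0.14 and Catsperd by 0.11, without overlap, and Catsper2 by 0.11 with overlap. Against the elongating list the differences were −0.29 for Catsper1 and 0.09 for Catsperb, without overlap, and 0.06 for both Catsper2 and Catsperd, with overlap. Against the spermatocyte list they were −0.25 for Catsper1 and 0.12 for Catsperb, without overlap, and 0.10 for both Catsper2 and Catsperd, with overlap. Catsper3 and Catsper4 overlapped between groups against all 3 lists. Their differences were −0.05 and 0.001 against the round, −0.10 and −0.05 against the elongating, and −0.07 and −0.01 against the spermatocyte list.

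**Figure D5:**
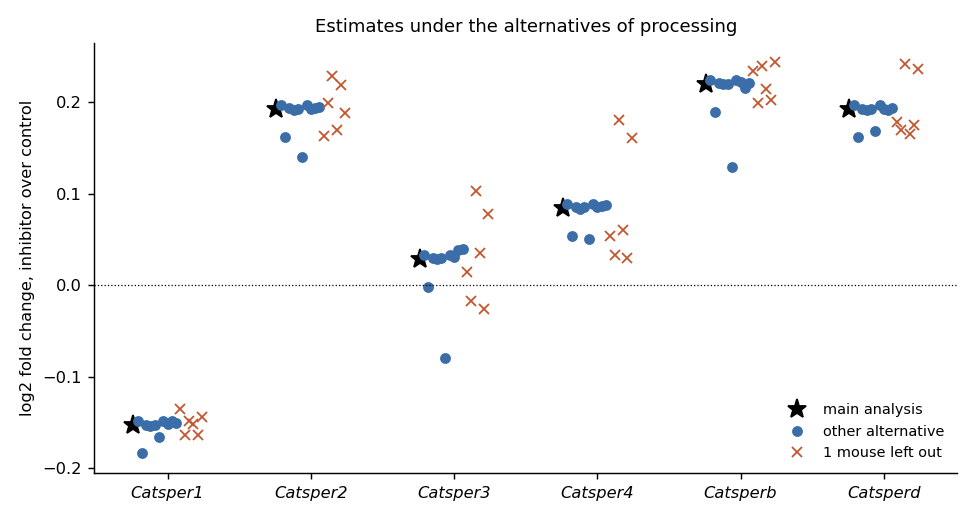
Log2 fold change of each subunit gene (vertical axis) in the main analysis and under 16 alternatives, of which 6 leave out 1 mouse each. Catsper1 stays below 0 and Catsper2, Catsper4, Catsperb and Catsperd above 0 in all 16, while Catsper3 lies on both sides.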

How the data were processed

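Per the submitters' processing notes, cutadapt 1.8, TopHat2 2.0.13, Cuffdiff 2.2.1 and build mm10 (GRCm38) were used; for their roles, annotation and use of strand, nothing is given in the sources used here. The authors deposited, per gene and library, fragments that are expected counts (98.8% of 140166 values whole within 1e-06). FPKM, by its definition fragments divided by transcript length and library size, is used as deposited by the authors, and the scaling between their libraries is not recorded in the header. Fragments were rounded and tested with edgeR 4.0.16 in R 4.3.3 (filterByExpr, TMM, robust quasi-likelihood F-test, two-sided, Benjamini-Hochberg at 0.05), with standard errors and 95% intervals derived from the F statistic. Log2 CPM used a prior count of 2. Each library is labelled as its own mouse. The procedure was tested on simulated data with planted changes larger than those of the members, so recovery of differences as small as theirs was not tested. The members and gene lists were chosen with earlier results of these data known. Of 162 list symbols, 158 matched the table, 4 by an older symbol. Named genes were all members, Ret, the other CatSper complex genes, up to 3 genes of smallest p per list, and the 2 closest in pattern per member; Pdia3 and Lonp1 were added after the windows were seen, and lists of no bearing on the channel are summarised only. Of the tested genes, 99.0% had a length from GENCODE M21 for the length and GC offset (loess, span 0.5). Alternatives also used DESeq2 1.42.0, limma 3.58.1, other scalings and filters, the mouse number as a block and each mouse left out.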

Additional observations from a re-analysis of the deposited data

How the results depend on the processing

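Of 96 member estimates under 16 alternatives, 87 kept their direction and side of the threshold, 4 reversed and 5 newly passed. All reversals were in Catsper3: −0.0016 with library totals only, −0.0798 with the length and GC offset, −0.017 without control 2 and −0.027 without inhibitor 2. The new calls were Catsper2 (0.20, adjusted p = 0.0265) and Catsperb (0.22, adjusted p = 0.0185) in DESeq2, and Catsper2 (0.19), Catsperb (0.24) and Catsperd (0.24) in edgeR without inhibitor 3; the cause was not tested. With single mice left out, log2 fold changes ranged from −0.16 to −0.14 for Catsper1, 0.16 to 0.23 for Catsper2, −0.03 to 0.10 for Catsper3, 0.03 to 0.18 for Catsper4, 0.20 to 0.24 for Catsperb and 0.17 to 0.24 for Catsperd. With the length and GC offset Catsper2, Catsperb and Catsperd were at 0.14, 0.13 and 0.17 (edgeR adjusted p = 0.231, 0.223 and 0.204). Over all genes the main counts were 10 higher and 16 lower. With single mice left out they ranged from 0 to 1470 higher and 0 to 935 lower, both highest without inhibitor 3 and 0 without control 1, control 2, inhibitor 1 or inhibitor 2. Library totals gave 4 higher (and 23 lower), no filter on low counts 58 and 57, at least 50 counts in 3 libraries 3 and 7, and the length and GC offset 6 and 7. DESeq2 gave 374 and 170, limma-voom 3 (and 11 lower), limma on log2(FPKM + 1) 0 and 0, and on log2(FPKM + 0.1) 0 and 1. Ret did not pass in these limma fits on FPKM (adjusted p = 0.1565 and 0.1476), and DESeq2 gave it no adjusted p. With the mouse number as a replicate block there were 0 higher and 5 lower, and no member changed its call (adjusted p = 0.180 to 0.909). The numbers are not said to pair mice: deviations of same-numbered libraries correlated at 0.096, −0.066 and 0.064, and not every library correlated best with its own number. List counts under the alternatives were added after the data were seen.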
